A study of Mus musculus with 6 samples.

Results

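Of the 19938 genes measured in CTIP2:GFP+ and CTIP2:GFP- cells, 6 were followed here for their part in packing, clearing and remaking glutamate. They were taken by gene symbol and are Slc17a6, Slc17a7 and Slc17a8, which load glutamate into synaptic vesicles, Slc1a1 and Slc1a2, which take it up from outside the cell, and Glul, which turns it into glutamine. Each gene was read from its brightest probe set with a single symbol, and no measured difference was used to choose it. The cells came from mouse embryonic stem cells of the 129SVEV line in which GFP had been knocked into the gene for CTIP2 (Bcl11b) by homologous recombination, with the selection cassette still in place, so all samples carried the same reporter. They were grown as floating aggregates, with inhibitors of the TGF-beta receptor and of WNT in the first days, and were sorted by GFP on day 11, day 12 or day 13 of differentiation. RNA of each fraction on each day was hybridised to 1 GeneChip Mouse Gene 1.0 ST array, 6 arrays in all. The 3 arrays of a fraction are thus consecutive days, with no day repeated. Whether the days came from 1 culture or from separate ones is not in the labels. The paper states for its data in general that there were at least 3 independent experiments. How many clones of the line were used was not given in the sources used here.

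Glutamate is the main excitatory transmitter of the brain. A neuron that releases it needs a vesicular transporter, and in the mature forebrain Slc17a7 (VGLUT1) is typical of cortical and Slc17a6 (VGLUT2) of thalamic and other subcortical excitatory neurons, while many cortical neurons also use Slc17a6 early in development. Slc17a8 (VGLUT3) is found in scattered neurons that often release another transmitter as well. After release, glutamate is cleared by transporters of the SLC1 family, of which Slc1a1 (EAAT3) is mainly neuronal and Slc1a2 (GLT-1) is the main carrier of mature astrocytes, and glutamine synthetase (Glul), an enzyme of astrocytes and of radial glia, converts it to glutamine that neurons can use again.

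The arrays read transcripts and not promoters, and the sequences upstream of the start sites are given for the 3 members that differed most between the fractions on day 12. They are the 250 bases before the first start site in RefSeq (GRCm38.p6), read 5′ to 3′ in the direction of transcription, and capitals mark a GC box (GGGCGG, or CCGCCC on the other strand), which stood in 32.7% of 32851 windows of this length.
Slc17a6, chr7:51621580-51621829, plus strand: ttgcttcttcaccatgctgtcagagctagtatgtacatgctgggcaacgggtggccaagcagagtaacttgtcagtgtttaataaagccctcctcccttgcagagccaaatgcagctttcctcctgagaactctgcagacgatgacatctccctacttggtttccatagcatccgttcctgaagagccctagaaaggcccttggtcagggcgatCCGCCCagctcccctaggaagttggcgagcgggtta
Slc1a1, chr19:28834885-28835134, plus strand: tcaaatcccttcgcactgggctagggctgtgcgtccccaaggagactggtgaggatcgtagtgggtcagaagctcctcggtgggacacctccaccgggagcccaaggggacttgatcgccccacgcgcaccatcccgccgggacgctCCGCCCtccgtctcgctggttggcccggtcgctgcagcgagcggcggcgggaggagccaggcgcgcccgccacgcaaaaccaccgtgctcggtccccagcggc
Glul, chr1:153899679-153899928, plus strand: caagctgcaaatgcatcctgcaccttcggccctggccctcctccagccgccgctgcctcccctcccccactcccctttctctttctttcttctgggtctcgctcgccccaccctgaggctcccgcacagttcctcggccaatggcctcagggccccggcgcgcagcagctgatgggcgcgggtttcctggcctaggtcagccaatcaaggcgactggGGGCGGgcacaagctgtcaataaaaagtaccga
Each of the 3 windows held 1 GC box, beginning 36 bases before the start of Slc17a6, 103 bases before that of Slc1a1 and 33 bases before that of Glul. The box was not particular to these 3 members. The window of Slc17a7, not printed, held it 70, 18 and 13 bases before the start, and those of Slc17a8 and Slc1a2 did not hold it. None of the 3 held the E-box CAGATG (14.4% of windows), the letters TGGGAA (21.6%) or TATAAA (12.4%), each searched on both strands and none overlapping the GC boxes. RefSeq gives Slc17a6 a further start site, and the window before that one held CAGATG once, 205 bases upstream. Slc17a8 has a further start site as well, and its window held CAGATG on the other strand, 42 bases upstream. Whether any of these letters bear on the signals was not tested.

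The signals used are the log2 values that the authors calculated with RMA16, and where 3 values of a fraction follow each other they are in the order of day 11, day 12 and day 13. The sorted gene Bcl11b lay between 7.91 and 8.76 on the GFP+ arrays and between 6.27 and 6.88 on the GFP- arrays (difference on the log2 scale 1.87, with a standard error of 0.19 and a limma adjusted p = 0.025). Under 13 alternatives to this fit the difference of Bcl11b ran from 1.59 to 2.11, and it passed at an adjusted p under 0.05 in 8 of them. A known difference was thus missed under some settings. The GFP- array of day 13 was unlike the other 5. Its values spread least over probe sets (standard deviation 1.11, against 1.29 to 1.48), and its correlations with the other arrays across probe sets were 0.863 to 0.927.

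No member passed the test between GFP+ and GFP- cells. At an adjusted p under 0.05 from limma, with day as a factor and adjustment over all genes, 0 of 6 members were higher and 0 were lower, while 0.797% of all genes were higher and 0.567% were lower, 1.36% together. These were 159 and 113 genes, and after a further quantile normalization 52 and 99. None of the 6 reached an unadjusted p under 0.05 in limma either, as 15.5% of all genes did, and their adjusted p ran from 0.427 to 0.919. The mean differences, each GFP+ minus GFP- on the log2 scale and averaged over the 3 days, were positive for Slc17a6, Slc1a1 and Slc1a2 and negative for Slc17a7, Slc17a8 and Glul. Their median was -0.001, beside -0.05 for all genes. No member was on average over 2-fold higher or lower, as 1.97% and 1.02% of all genes were, and for each of the 6 the GFP+ and GFP- arrays overlapped, whereas 16.9% of all genes showed no overlap (9.05% with GFP+ above and 7.85% with GFP+ below). Only Slc1a1 had the same sign on all 3 days, which 38.4% of all genes did. Taken by day, 2 members, Slc17a6 and Slc1a1, were over 2-fold higher in GFP+ cells on day 12 and none was over 2-fold lower, against 1.48% and 2.43% of all genes. None passed 2-fold on day 11, when 1.85% of genes were that much higher and 1.3% lower, or on day 13, when 9.18% were higher and 2.29% lower.

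**Figure D1:**
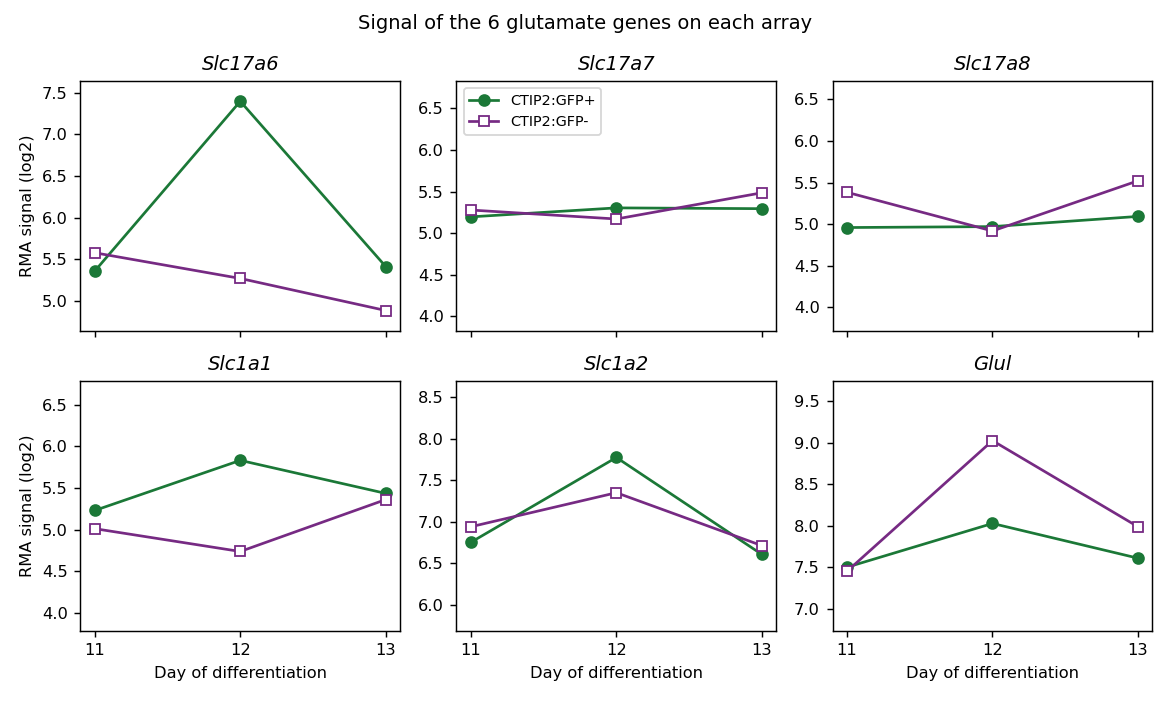
RMA signal (y axis, log2) of the 6 genes on day 11, day 12 and day 13 (x axis), with filled circles for CTIP2:GFP+ and open squares for CTIP2:GFP- arrays, 1 array per point. Each panel spans the same height on its own range of signal. Slc17a6 stood at 7.40 on the day 12 GFP+ array and between 4.89 and 5.58 on the other 5, and Glul was highest, at 9.02, on the day 12 GFP- array.

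Slc17a6, the vesicular transporter VGLUT2, was high on a single array. In GFP+ cells the 3 arrays read 5.36, 7.40 and 5.41, and in GFP- cells they read 5.58, 5.27 and 4.89. The day 12 GFP+ array therefore lay 1.82 above the next highest array, and the other 5 arrays covered a narrow range in which the fractions overlapped. GFP+ exceeded GFP- by -0.22, 2.13 (4.37-fold) and 0.53 on the 3 days, and the difference of day 12 ranked 17 of 19938 genes on that day. The GFP+ arrays averaged 6.06 ± 1.16 (SD, n = 3), against 5.25 ± 0.35 (SD, n = 3) for the GFP- arrays. The mean difference of 0.81 (standard error 0.43, 95% interval -0.24 to 1.87) did not pass limma's test (adjusted p = 0.454). The value rests on day 12: without it the difference was 0.16 (adjusted p = 0.775). Without day 11 it was 1.33 and passed in limma (adjusted p = 0.0218), in a fit that called 381 genes higher and 171 lower. That fit has fewer arrays, and its standard errors were alike across members (0.34 for Slc17a6, 0.30 for Slc17a7 and 0.31 for Glul). Its p-value therefore rests little on the spread of Slc17a6 itself.

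Slc17a7 and Slc17a8, the transporters VGLUT1 and VGLUT3, gave low signals in both fractions. Slc17a7 lay at 5.20, 5.30 and 5.29 on the GFP+ arrays and at 5.28, 5.17 and 5.48 on the GFP- arrays. All 6 values fell within 0.31 of each other, and neither fraction was consistently above the other. Its mean difference was -0.05 (standard error 0.14, 95% interval -0.40 to 0.31, adjusted p = 0.894 from limma), an interval that leaves out a 2-fold difference of signal in either direction. Slc17a8 lay at 4.96, 4.97 and 5.09 on the GFP+ arrays and at 5.38, 4.92 and 5.52 on the GFP- arrays. It was lower in GFP+ cells on day 11 (-0.42) and day 13 (-0.43) and close to level on day 12 (0.05). Its mean difference was -0.27 (standard error 0.16, 95% interval -0.67 to 0.13, adjusted p = 0.523), which also leaves out 2-fold of signal. On every array both genes ranked below the median probe set, from the 34.2th to the 49.9th percentile, and the table gives no call of presence. Whether either transcript was there, or differed 2-fold in amount, cannot be read from these values. The same limit holds for Slc17a6 outside the day 12 GFP+ array (21.3th to 54.5th percentile) and for Slc1a1 (30.08th to 61.03th), and the folds given for them compare signals that include background.

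Of the uptake genes, Slc1a1 was above GFP- in GFP+ cells on each day, and Slc1a2 was highest on day 12 in both fractions. Slc1a1, the neuronal transporter EAAT3, lay at 5.23, 5.83 and 5.43 on the GFP+ arrays and at 5.01, 4.74 and 5.36 on the GFP- arrays. The fractions still overlapped, since the day 13 GFP- array lay above the day 11 GFP+ array. The difference was 0.22, 1.09 and 0.07, so that it was over 2-fold (2.14-fold) on day 12 only, where the gene combined its highest GFP+ and its lowest GFP- signal. The mean difference was 0.46 (standard error 0.23, 95% interval -0.10 to 1.03, adjusted p = 0.427 from limma), and 0.15 without day 12. Slc1a2, the transporter GLT-1, lay at 6.75, 7.77 and 6.61 on the GFP+ arrays and at 6.94, 7.35 and 6.71 on the GFP- arrays. Both day 12 arrays were above the other 4, and the difference between the fractions was -0.19, 0.42 and -0.11. Its mean difference was 0.04 (standard error 0.17, 95% interval -0.38 to 0.47, adjusted p = 0.919), an interval that leaves out 2-fold in this fit. The standard error was 0.15 after median centring of each array, 0.33 with no block for the day and 0.41 with the methods' t-test. Intervals were not computed for those.

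Glul, glutamine synthetase, was highest in the day 12 GFP- cells. The GFP+ arrays read 7.50, 8.03 and 7.61, and the GFP- arrays read 7.45, 9.02 and 7.99. The fractions were level on day 11 (difference 0.05), and GFP+ cells were lower on day 12 (-0.995, 1.99-fold) and day 13 (-0.38). The mean difference was -0.44 (standard error 0.22, 95% interval -0.99 to 0.11, adjusted p = 0.431 from limma). It was -0.16 without day 12, -0.69 without day 11 and -0.71 after a further quantile normalization, none of them past the test. The array has another probe set for Glul. The one used here is brighter, but the probe sets numbered beside it belong to C1d and Spred2, which lie on another chromosome, while the dimmer one sits between Teddm1a and Zfp648, the coding genes on either side of Glul in GRCm38.p6. The dimmer probe set lay at 6.72, 6.81 and 6.89 on the GFP+ arrays and at 6.44, 7.78 and 6.85 on the GFP- arrays, with differences of 0.28, -0.97 and 0.04. Its mean difference was -0.21 (adjusted p = 0.737 from limma), smaller than that of the brighter one. Both probe sets thus showed the high day 12 GFP- array, and they disagreed on the sign of day 13. Signal from a near-identical copy of Glul was not tested.

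**Figure D2:**
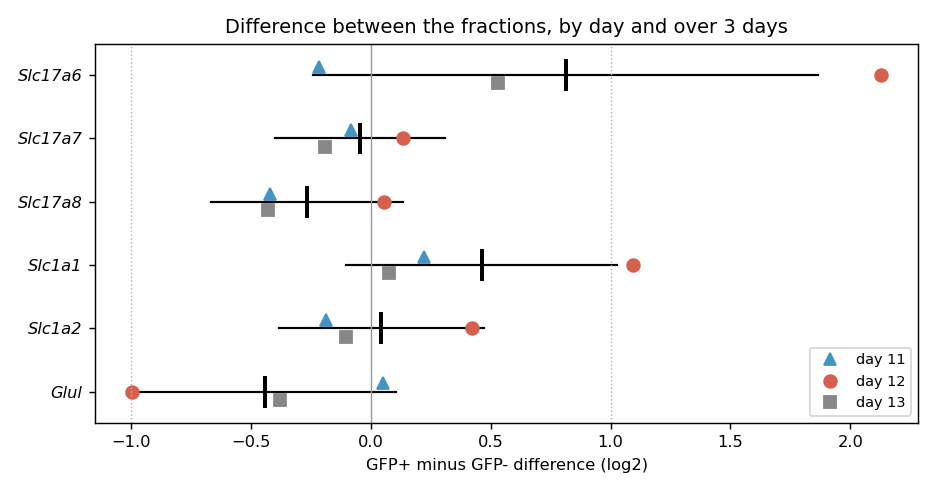
GFP+ minus GFP- difference (x axis, log2) of the 6 genes (y axis). Coloured points are the 3 days, thick bars the mean over days and thin lines its 95% interval from limma, and dotted lines mark 2-fold. All 6 intervals span 0, and the day 12 points of Slc17a6 (2.13) and Slc1a1 (1.09) lie beyond the upper dotted line.

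Differences over time were tested across all genes in the same way. For a steady change per day of the signal in both fractions together, the estimates ranged from -0.16 for Slc17a6 to 0.16 for Glul, and 0 of 6 members passed, as did 0 genes in all (percent of genes called, 0), of which 0.873% had an unadjusted p under 0.05 in limma. For a steady change per day of the difference between the fractions, the estimates ranged from -0.21 for Glul to 0.37 for Slc17a6. Again 0 members and 0 genes passed in limma, and 0.542% of genes had an unadjusted p under 0.05. Since day 12 differed from both its neighbours in several members, the difference on day 12 was also set against that of the other 2 days, a comparison chosen after the values were seen. It was 1.97 for Slc17a6 (standard error 0.43, 95% interval 1.04 to 2.91, adjusted p = 0.87 from limma), 0.95 for Slc1a1 (standard error 0.38, adjusted p = 0.87) and -0.83 for Glul (standard error 0.40, adjusted p = 0.87). No gene passed after adjustment, and 5.71% of genes, 2 of the 6 members among them (Slc17a6 and Slc1a1), had an unadjusted p under 0.05. With a trended and robust eBayes in limma the adjusted p of Slc17a6 was 0.0149, and the share of all genes passing in that setting is not given here. The fit of this comparison leaves fewer residual degrees of freedom than that of the fractions. Slc17a6 was also among the values that led to the comparison, so this p-value is not a test of it on new data. Each fraction had 1 array on day 12, so a property of that array and of those cells cannot be told apart.

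Markers of several cell types moved with these values, and their part in them was not tested. Among 10 measured markers of the cortical glutamatergic lineage, 0 passed the test between the fractions in either direction, and 4 (Tbr1, Neurod1, Neurod2 and Neurod6) had their highest signal on the day 12 GFP+ array, as Slc17a6 did and as 11.9% of all genes did. Tbr1, a transcription factor of early cortical projection neurons, lay at 4.96, 6.79 and 5.84 on the GFP+ arrays and at 4.91, 5.01 and 5.46 on the GFP- arrays, a difference of 1.78 on day 12. For Neurod6, a factor of postmitotic excitatory neurons, that difference was 1.21, while for Neurog2, a factor of their progenitors, it was -1.48, and the median of the list was 0.20 on day 12. Over the 3 days 7 of the 10 had a negative mean difference, with a median of -0.25. The mean signal of the 10 markers was 5.52 to 6.27 on the GFP+ and 5.92 to 6.16 on the GFP- arrays. A list of 8 transcription factors was read for excitatory neurons outside the cortex, though not all, Ebf1 among them, are particular to such neurons. Of these, 1 was highest on the day 12 GFP+ array (Ebf1) and 1 was lower in GFP+ cells past the test (Tcf7l2, -1.01). Of 10 general neuronal markers, 2 passed the test as higher in GFP+ cells and 7 peaked on that array, with a mean signal of 9.36 to 9.69 on the GFP+ and 7.64 to 8.81 on the GFP- arrays. Of 8 GABAergic markers, 5 passed as higher in GFP+ cells and none peaked there, and their mean GFP+ signal was 7.71 on day 12 against 9.05 on day 11 and 8.88 on day 13. In bulk samples such as these, fewer cells of a type and less RNA per cell cannot be told apart.

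On the glial side, 9 of 11 radial glial and 4 of 7 astrocyte markers had their highest signal on the day 12 GFP- array, as Glul did and as 24.9% of all genes did. The test called 6 of the radial glial and 2 of the astrocyte markers lower in GFP+ cells. The mean signal of the radial glial list was 7.17 to 7.73 on the GFP+ and 8.56 to 9.10 on the GFP- arrays, and that of the astrocyte list 5.41 to 5.84 and 6.06 to 6.85. The 4 astrocyte markers highest on the day 12 GFP- array were Aldh1l1, Gja1, Aldoc and Sox9, which read 7.81, 7.65, 8.73 and 9.27 there. Their mean differences were -1.94, -1.31, -1.47 and -1.36, and Gja1 and Sox9 were the 2 past the test. Of the 7 astrocyte markers, 6 had a negative and 1 (Gfap) a positive mean difference. Gfap, a defining protein of mature astrocytes, lay between 4.88 and 5.09 on all 6 arrays. Aqp4, their water channel, lay between 4.58 and 5.43. Of 5 measured oligodendrocyte and 9 non-neural markers none passed the test, with mean signals of 6.03 to 6.36 and 5.15 to 5.39 on the GFP+ and 5.61 to 6.53 and 5.15 to 5.94 on the GFP- arrays. The non-neural list was highest on the day 13 GFP- array.

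The other genes of glutamate handling were read from 6 lists. Of 42 measured genes (46 listed), 0 were higher and 2 were lower in GFP+ cells past the test, Slc1a3 and Oat, and the median of their mean differences was 0.06. Slc1a3, the transporter GLAST of radial glia and astrocytes, is the SLC1 gene beside the members. It read 5.88, 7.66 and 6.37 in GFP+ and 8.44, 10.1 and 9.58 in GFP- cells (mean difference on the log2 scale -2.72, with a standard error of 0.20 and a limma adjusted p = 0.024). The fractions did not overlap, in contrast to Slc1a1 and Slc1a2, and whether the genes differ from each other in this was not tested. Of the other 4 SLC1 genes none passed, and their mean differences were -0.21 to -0.08. Of the 6 other SLC17 genes none passed, with mean differences from -0.20 to 0.23, the latter for Slc17a5, the lysosomal sialic acid exporter.

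Enzymes and carriers gave both directions. Oat, ornithine aminotransferase of mitochondria, which links ornithine with glutamate, lay at 6.49, 7.04 and 6.45 on the GFP+ arrays and at 7.51, 8.36 and 7.46 on the GFP- arrays. It was thus lower in GFP+ cells by a similar amount on each day, with differences of -1.01, -1.32 and -1.01 (mean -1.12, standard error 0.15, adjusted p = 0.037 from limma). Of the other 10 measured enzymes none passed. The largest mean differences among them were 0.90 for Got1, the cytosolic aspartate aminotransferase, -0.55 for Gpt2, the mitochondrial alanine aminotransferase, and -0.33 for Asns, asparagine synthetase. By day, Got1 had 0.98, -0.35 and 2.07, so its mean leaned on day 13. Of 6 glutamine and cystine carriers and 4 mitochondrial carriers none passed. Slc38a3, a glutamine carrier (SNAT3) known from astrocytes, had differences of -0.76, -1.86 and -1.65 (mean -1.42, adjusted p = 0.0612), and Slc25a18, a mitochondrial glutamate carrier, had -0.71, -1.78 and -1.60 (mean -1.37, adjusted p = 0.0623). On the other side were Slc25a12, the aspartate-glutamate carrier of neurons and muscle (mean 0.97, adjusted p = 0.1), Slc38a1 (0.60, with 1.49 on day 13 and -0.03 on day 12), a neuronal glutamine carrier, Slc38a2 (0.59), another glutamine carrier, and Slc25a22 (0.57), another glutamate carrier. Slc7a11, the cystine-glutamate exchanger, was at -0.43 and Slc25a13, the relative of Slc25a12, at -0.44.

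Of 10 measured subunits of the proton pump that powers vesicle loading and of its accessory proteins, all 10 had a positive mean difference and none passed the test. Their median was 0.68, and by day 0.62, 0.21 and 1.38, highest on day 13, the day of the GFP- array that was unlike the others. The largest means were those of Atp6v0a1 (1.03, adjusted p = 0.105), Atp6v1b2 (0.99), Atp6v0d1 (0.85) and Atp6v1e1 (0.73). On day 12, when Slc17a6 differed most, none of the 10 was over 2-fold different. The 10 general neuronal markers also all had a positive mean difference, with a median of 1.06, and the median of all genes was -0.05. The share of all genes with a positive mean difference was not computed. Without day 13, after median centring of each array, or with the methods' t-test, no gene of the array passed, Slc1a3 and Oat included. With no block for the day both calls were lost as well (adjusted p = 0.0985 for Slc1a3 and 0.161 for Oat). The differences themselves stayed between -3.23 and -2.47 for Slc1a3 and between -1.31 and -1.01 for Oat under every alternative run.

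**Figure D3:**
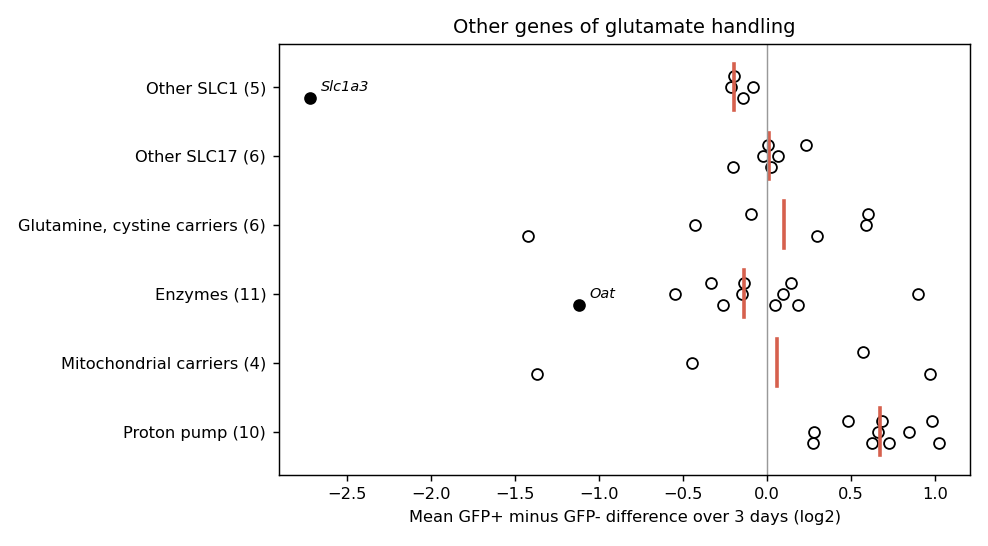
Mean GFP+ minus GFP- difference over 3 days (x axis, log2) of 42 genes in 6 lists (y axis, with the number measured). Filled points passed the test, open points did not, and orange bars are medians. Slc1a3 (-2.72) and Oat (-1.12) are the filled points, and all 10 proton pump points lie above 0.

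The profiles of 4 members, Slc17a6, Slc1a1, Slc1a2 and Glul, ranged over at least 1 on the log2 scale, and for each the 3 nearest genes were found by the root mean square difference over the 6 arrays, after centring each gene on its mean. The distances rest on 6 arrays and are descriptions, with no test. The genes were picked for likeness on these same arrays, so the signs and peaks they share with a member are largely set by that choice. Nearest to Slc17a6 were Plcb1, a phospholipase C (0.143), Arpp21, a cAMP-regulated phosphoprotein of neurons (0.205), and Ntm, an adhesion molecule of the IgLON family (0.239). Their differences on day 12 were 1.83, 1.90 and 1.40. Nearest to Slc1a1 were Mturn (0.093), Eef1a2, an elongation factor of neurons and muscle (0.108), and Scn1a, a sodium channel subunit (0.114), all with a positive difference on each day. Nearest to Slc1a2 were Tnik, a kinase (0.103), Dab1, the adaptor of reelin signalling (0.110), and Eps15, an endocytic adaptor (0.131). Nearest to Glul were Itga6, an integrin subunit (0.105), Itm2a (0.117) and Magt1 (0.118), with day 12 differences of -1.22, -1.19 and -1.01.

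**Figure D4:**
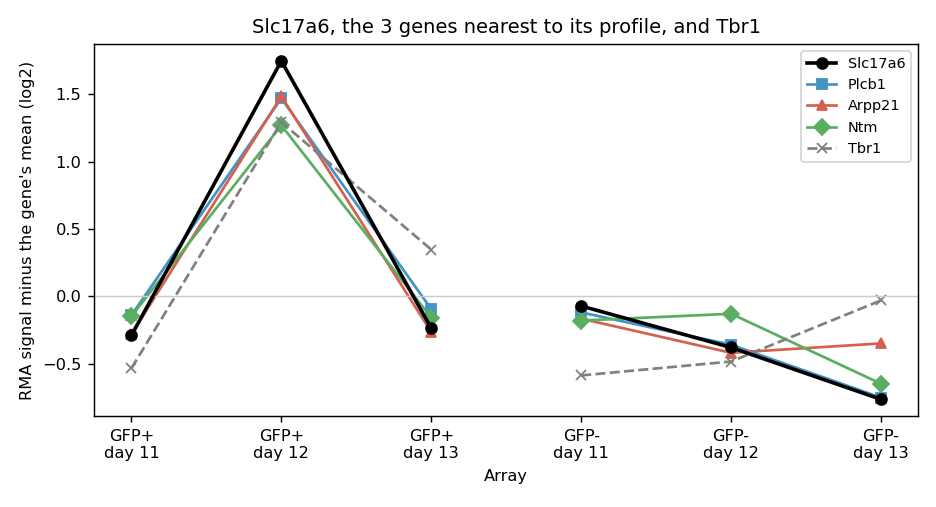
RMA signal minus the gene's own mean (y axis, log2) on the 6 arrays (x axis) for Slc17a6, the 3 genes nearest to it by root mean square difference, and Tbr1 (dashed), a marker of cortical projection neurons. Lines join the 3 days of a fraction. All 5 genes were highest on the day 12 GFP+ array, which for the 3 nearest genes follows from how they were picked. Tbr1 kept a higher day 13 than day 11 signal in GFP+ cells.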

How the data were processed

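RNA of sorted cells was measured on 6 arrays. The deposited values are log2 signals from RMA16, as run by the authors in the GeneSpring software. The sources used here do not say if all arrays entered 1 normalization, or which filter and annotation release applied. Of 28853 probe sets, 21789 had 1 symbol in the platform annotation, 1621 several and 5443 none. Of those with 1 symbol, 21698 matched the gene table of GRCm38.p6 by Entrez ID, which changed 0 symbols. No build is named for the values, and coordinates are given for RefSeq sequences only.

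Differences were fitted by limma 3.58.1 (R 4.3.3) on 2 factors, fraction and day, with Benjamini-Hochberg adjustment over 19938 genes. The fit leaves 2 residual degrees of freedom. The pairing comes from the day in the labels, and same-day arrays deviated together from their fraction means (r across genes 0.112, 0.558 and 0.368 on day 11, day 12 and day 13). The p-values of this fit weigh the mean difference between fractions against how that difference varied from day to day. Limma moderates this spread of each gene with that of all genes, and the number of arrays limits the precision. The fit was also run on simulated data of independent noise with added differences. These held no day effect and no array unlike the others, so the run does not show how the test behaves on these arrays.

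The members and gene lists were chosen with earlier results of these data known. Besides the members, the rule for naming took from the 6 lists of glutamate handling every gene past the test and those with the largest differences (up to 4 per list), some markers where their list is described, and the 3 nearest profiles of members that ranged over 1. Of the listed genes, 4 of glutamate handling and 3 markers were not analysed here. Sequences came from RefSeq, and all 6 members matched. The alternatives were a fit with no day block, each day left out, other normalizations, the mean of probe sets, filters on dim genes, another variance model and the methods' t-test. The day 12 comparison, the fit without the day 12 GFP+ array and the other Glul probe set were added after seeing the data.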

Additional observations from a re-analysis of the deposited data

How the results depend on the processing

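No member was called under any alternative to the difference between fractions, except that leaving out day 11 called Slc17a6 higher: leaving out each day in turn, 0 to 1 members were called higher, and the difference of Slc17a6 ran from 0.16 to 1.33. With no replicate block, that is, no block for the day, the difference of Slc17a6 stayed at 0.81 (adjusted p = 0.677) and no member was called. The mean difference of Slc17a7 turned positive without day 13 (leaving out each day, -0.136 to 0.0258), without the day 13 GFP- array and with no block (0.0406), after median centring (0.00911) and after a further quantile normalization (0.0129). That of Slc1a2 turned negative without day 12 (-0.15), without the day 13 GFP- array (-0.10) or the day 12 GFP+ array (-0.32) and with no block, and after quantile normalization (-0.13). The change of the difference per day turned after median centring for Slc17a7 (0.0048) and Slc17a8 (0.0568), and after quantile normalization for Slc17a8 (0.0499), Slc1a1 (0.00106) and Slc1a2 (-0.13). The differences of Slc17a6, Slc17a8, Slc1a1 and Glul kept their sign under every alternative run. The filter at the median of all values removed Slc17a7, Slc17a8 and Slc1a1. The cause of these changes was not tested.

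Over all genes, 159 were higher and 113 lower. These counts were 84 and 41 with no block, 0 and 0 after median centring and with the methods' t-test, 653 and 319 with the filter at the median, 342 and 208 with that at the 20th percentile, and 549 and 510 with a trended and robust eBayes. After quantile normalization 52 were higher and 99 lower, and 8 and 2 were called when the day 12 GFP+ array was dropped from the unblocked fit. Leaving out each day, 0 to 930 genes were higher and 0 to 229 lower.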
